A study of Rattus norvegicus with 12 samples.

Results

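Lipogenesis turns surplus carbohydrate into fat, and 31 genes of that pathway were followed in liver RNA from female and male obese ZSF1 rats. The members were chosen by a list of 37 symbols running from citrate export through chain synthesis, elongation and desaturation to the last acylation of triglyceride, and each row of the count files bearing one of these symbols was taken, so 31 of the 16478 gene rows are described. Fasn, Srebf1, Mlxipl and Pnpla3 are not analysed here, because no row carried these symbols. Gyk is an older name of Gk, which did have a row. The stearoyl-CoA desaturase symbols need care: the files held rows named Scd1 and Scd and none named Scd2. RefSeq lists Scd1 as an older name of the gene now called Scd, and Scd as an older name of the gene now called Scd2. By elimination the row Scd was matched to present-day Scd2 and the row Scd1 to present-day Scd, and both are called here by their names in the files.

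The animals were 6 females (numbers 7 to 10, 12 and 13) and 6 males (numbers 1 to 6), with 1 liver library each, taking each number in the sample titles as an animal. Every animal was an adult of the obese ZSF1 strain at 16 weeks of age, untreated, housed at a commercial breeder and fed chow without restriction. ZSF1 rats descend from a cross between strains that carry leptin receptor mutations, and obese offspring have no intact copy of the receptor gene. This defect was therefore shared by both sexes. No lean animals are analysed here. Female libraries held 6763879 to 24837602 counts over genes and male libraries 11381428 to 29232871, so that 3 counts correspond to 0.105 to 0.415 CPM, a count scaled to its library size, and genes at that level are poorly measured. In a principal component analysis of all tested genes male 4 stood apart on the second component (11.4% of the variance) and female 12 on the third (5.84%). Because the animal numbers separate by sex, a batch that followed them and the sex of the animals cannot be told apart. The tissue label fitted the hepatocyte markers, whose 8 measured genes summed to between 204700 and 316100 CPM in the 12 libraries.

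In hepatocytes, citrate leaves the mitochondrion and is cleaved to acetyl-CoA, which is carboxylated to malonyl-CoA and built into palmitate. Elongases and desaturases then lengthen the chain and add double bonds. Acyl-CoA synthetases activate fatty acids, and a chain of acyltransferases and phosphatases joins them to glycerol 3-phosphate until triglyceride is made. In liver this flow is known to respond to insulin and carbohydrate through the transcription factors SREBP-1c and ChREBP.

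RefSeq promoter windows of assembly GRCr8 were read for the members as a description, and their relation to the levels was not tested. All 31 rows matched a RefSeq gene, and 25 of these had a window, with a pair of overlapping windows for Elovl2. Acaca, Elovl6, Gpd1, Agpat6, Dgat1 and Dgat2 had no window and were not searched. Each window spans 250 bases before the start site and 50 after it. Printed below are the 250 upstream bases for Gpam, the member with the widest gap between the sexes, and for both desaturase pairs in which 1 gene differed between the sexes and its relative did not pass the test. Capitals mark the NF-Y box CCAAT and the Sp1 box GGGCGG on either strand. The windows, in the order printed, lie on chr1:264175912-264176161 (minus strand), chr1:253118127-253118376 (plus), chr1:253231732-253231981 (minus), chr1:216252442-216252691 (plus) and chr1:216172034-216172283 (minus). The count files were made on another build, so genes were matched by name and not by position.

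Gpam: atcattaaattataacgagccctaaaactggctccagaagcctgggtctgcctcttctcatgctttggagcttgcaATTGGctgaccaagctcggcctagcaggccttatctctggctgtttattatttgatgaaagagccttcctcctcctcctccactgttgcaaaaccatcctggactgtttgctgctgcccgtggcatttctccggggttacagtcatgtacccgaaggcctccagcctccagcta
Scd, now Scd2: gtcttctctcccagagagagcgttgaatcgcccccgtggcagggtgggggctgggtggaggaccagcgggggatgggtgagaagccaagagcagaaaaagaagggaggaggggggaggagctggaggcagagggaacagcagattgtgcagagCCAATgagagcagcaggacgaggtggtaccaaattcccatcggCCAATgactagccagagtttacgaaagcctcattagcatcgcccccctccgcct
Scd1, now Scd: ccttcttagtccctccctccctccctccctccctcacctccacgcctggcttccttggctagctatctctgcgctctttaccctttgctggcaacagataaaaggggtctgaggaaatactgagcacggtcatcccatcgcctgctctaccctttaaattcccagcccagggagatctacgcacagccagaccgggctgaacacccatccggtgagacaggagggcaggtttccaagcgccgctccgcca
Fads1: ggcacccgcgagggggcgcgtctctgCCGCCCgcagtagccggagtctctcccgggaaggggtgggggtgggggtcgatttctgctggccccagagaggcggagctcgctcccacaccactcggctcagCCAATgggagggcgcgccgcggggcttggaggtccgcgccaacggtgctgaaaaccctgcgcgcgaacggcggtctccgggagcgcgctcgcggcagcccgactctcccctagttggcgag
Fads2: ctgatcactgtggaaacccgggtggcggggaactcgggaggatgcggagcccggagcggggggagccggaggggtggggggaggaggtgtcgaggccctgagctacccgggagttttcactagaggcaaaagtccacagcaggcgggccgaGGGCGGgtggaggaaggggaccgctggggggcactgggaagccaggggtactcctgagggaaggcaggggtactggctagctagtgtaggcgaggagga

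The Scd window holds NF-Y boxes starting 97 and 54 bases before the start site, the Fads1 window one 121 bases before it and the Gpam window one 174 bases before it. The Scd1 and Fads2 windows hold none. Fads2 holds an Sp1 box 99 bases before its start and Fads1 one 224 bases before its own. Over all 26 member windows of 300 bases, 15 (57.7%) hold CCAAT, against 37.5% of all 33469 windows in the table, and 13 hold GGGCGG, against 33.1%. The NF-Y box was found in 8 of the 13 genes with a window that were higher in females and in 6 of the 9 tested genes with a window that did not pass the test. None of the 26 windows holds the SREBP element TCACNCCAC, which 1.12% of all windows do, a share too low to expect a match in so few. The E-box CACGTG is held by 1 window (3.85%), that of Elovl5, against 6.42% of all windows. Searches covered both strands, and a hit is a match of letters only.

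Of the 31 genes, 29 had enough reads to be tested. In all, 16 members were higher in females and 3 were higher in males at an adjusted p under 0.05, where 43.2% of all 9943 genes tested were called, 20.5% higher in females and 22.7% higher in males. The median log2 difference, females minus males, was 0.56 over the members and -0.01 over all genes tested. Among the 16, a difference of at least 2-fold was found for 9 members, and 3.22% of all genes tested were called with such a difference toward females. The groups did not overlap for 12 members higher in females and for 3 higher in males. Over all tested genes 10.1% and 12.8% were separated in those directions. With male 4 and female 12 both left out, 18 members were higher in females and 3 in males. The summed level of the sinusoidal endothelial markers also separated the sexes (at least 76 CPM in females, at most 75.9 in males), and its part in these counts was not tested. These are bulk livers, in which fewer cells of a type and less RNA per cell cannot be told apart.

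**Figure D1:**
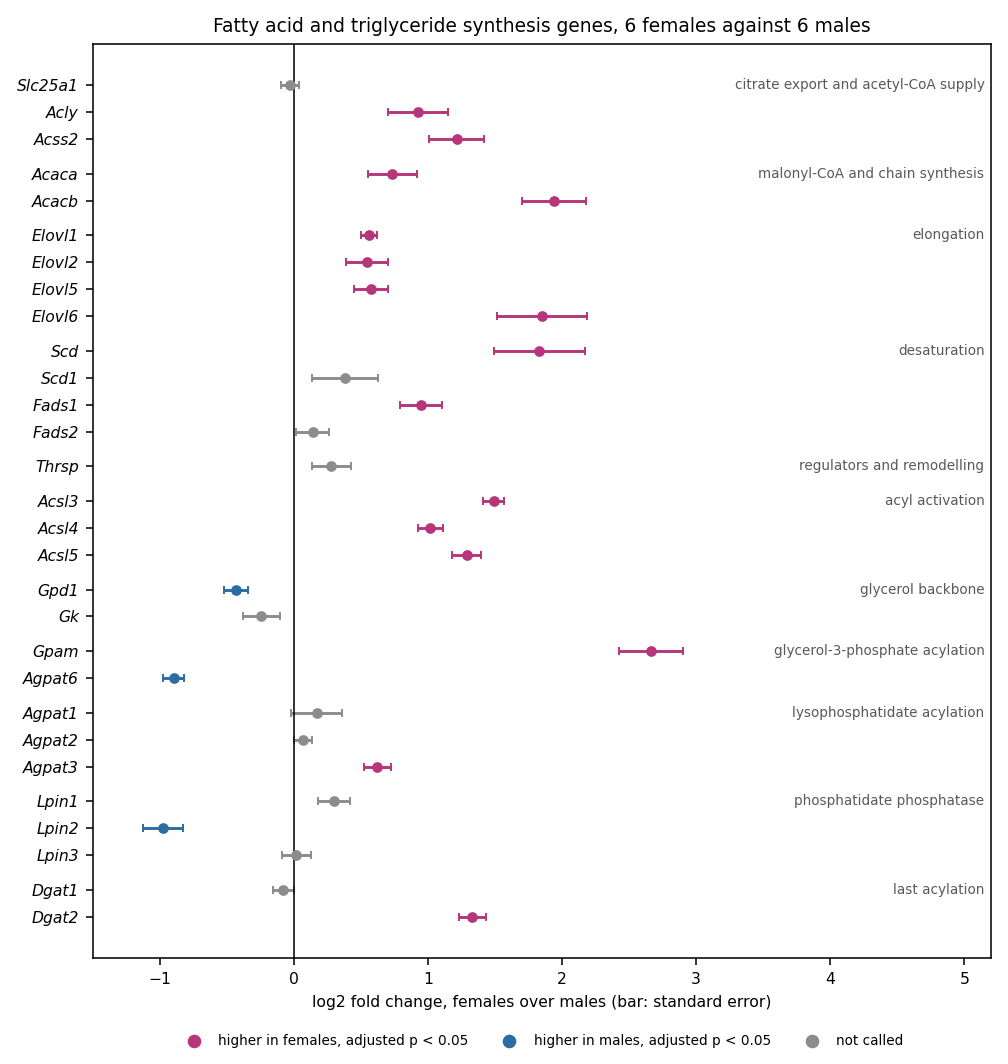
Log2 fold change of each tested member, females over males (x axis), with its standard error, in pathway order (y axis). Members higher in females reach 2.66 (Gpam), and the lowest value is -0.97 for Lpin2.

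Of the genes for acetyl-CoA supply, both enzyme genes were called toward females, as were 20.5% of all genes tested, and the carrier gene was not called. Slc25a1, the mitochondrial citrate carrier, ran from 141 to 190 CPM in females (median 160) and from 160 to 178 in males (median 166). Its groups overlapped throughout, and the log2 difference was -0.03 (SE 0.0686, adjusted p = 0.76). Acly, the ATP citrate lyase that cleaves citrate in the cytosol, ran from 1304 to 2504 CPM in females (median 1953) and from 648 to 1393 in males (median 962). Female 13 lay below males 3 and 5, and the other females lay above all males; the gene was 1.90-fold higher in females (log2 0.93, SE 0.222, adjusted p = 0.0044). Acss2, which makes acetyl-CoA from acetate, ran from 111 to 315 CPM in females (median 206) and from 68.8 to 101 in males (median 89.5). No female overlapped a male, and Acss2 was 2.32-fold higher in females (adjusted p = 0.000487).

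Both acetyl-CoA carboxylase genes were called higher in females, as were 20.5% of all genes tested. Acaca encodes the cytosolic isozyme that makes malonyl-CoA for chain synthesis, and Acacb the isozyme at the outer mitochondrial membrane, whose malonyl-CoA restrains carnitine palmitoyltransferase. Acaca ran from 272 to 419 CPM across females, and across males from 134 to 291, with female 13 below male 5, and was 1.67-fold higher in females (adjusted p = 0.00551). Acacb ran from 63.2 to 147 CPM in females (median 126) and from 16.8 to 38.1 in males (median 32.9). Its groups were apart, at 3.83-fold higher in females (log2 1.94, SE 0.239, adjusted p = 5.31e-05). The ratio of Acacb to Acaca counts within a library, which does not depend on library scaling, was 2.21-fold higher in females (2-sided exact permutation p = 0.00649, adjusted over 10 ratios 0.0108). The sexes overlapped in this ratio, with females 7 and 12 (0.225 and 0.213) below male 4 (0.254).

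All 4 elongase genes among the members were called higher in females, as were 20.5% of all genes tested. Elovl6 had the largest difference of the 4. Elovl1, an elongase of saturated very long chains, averaged 36.1 ± 2.35 CPM in females and 24.4 ± 1.01 in males (SD, n = 6 each), and it was 1.48-fold higher with no overlap. Elovl2 and Elovl5, which lengthen polyunsaturated chains, were 1.46-fold and 1.49-fold higher, each also without overlap. Elovl2 ran from 81.8 to 143 CPM across females, and across males from 51.3 to 81.7, so its groups nearly touched, and Elovl5 ran from 306 to 393 and from 150 to 275. Elovl6, which takes palmitate to stearate, ran from 109 to 516 CPM in females (median 329) and from 64.5 to 137 in males (median 81.6). Female 12 was the low female, below male 5. Elovl6 was 3.62-fold higher in females (log2 1.85, SE 0.336, adjusted p = 0.000971). Relative to Elovl5 it was 2.21-fold higher in females (exact permutation p = 0.0173, adjusted 0.0247). Relative to Elovl2 it was 2.30-fold higher (exact permutation p = 0.0346, adjusted 0.0433). Both ratios overlapped between the sexes. In the ratio to Elovl5 female 12 stood at 0.313, where males ran from 0.279 to 0.499. In the ratio to Elovl2 female 12 stood at 0.766, below all males (0.935 to 1.86). Leaving out 1 animal ended the call on the Elovl6 to Elovl2 ratio in 8 of 12 cases. These were females 7 to 10 and males 1 to 4 (exact permutation, adjusted p from 0.0649 to 0.0785). Leaving out male 2 also ended the call on the Elovl6 to Elovl5 ratio (exact permutation, adjusted p = 0.0526).

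The desaturases split within both families. Stearoyl-CoA desaturases place the first double bond in stearate and palmitate. The row Scd ran from 135 to 520 CPM in females (median 429) and from 61.8 to 143 in males (median 104), with female 12 alone inside the male range, and was 3.56-fold higher in females (log2 1.83, SE 0.339, adjusted p = 0.00113). The row Scd1 ran from 5421 to 19500 CPM across females, and across males from 7566 to 11550. Females 7, 9 and 10 lay above all males and female 12 below all of them. The log2 difference of Scd1 was 0.38 (SE 0.246, adjusted p = 0.23), and without female 12 it was 0.54 with an adjusted p of 0.0221. Per count of Scd, Scd1 gave 26.8 to 49.6 counts in females and 74.8 to 122 in males. This ratio was 2.74-fold higher in males with no overlap (exact permutation p = 0.00216, the smallest this design allows, adjusted 0.00433). The Scd genes are related in sequence, and how reads were divided between the rows was not given in the sources used here.

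Fads1 and Fads2, the delta-5 and delta-6 desaturases of polyunsaturated fatty acids, are read from neighbouring genes. Fads1 ran from 566 to 663 CPM in females (median 631) and from 198 to 441 in males (median 342). It was 1.93-fold higher in females without overlap (log2 0.95, SE 0.158, adjusted p = 0.000296), and its spread was smaller in females (SD 5.92% of the mean) than in males (28.1%), a difference that was not tested. Fads2 ran from 898 to 1213 CPM across females, and across males from 783 to 1231, overlapping widely, with a log2 difference of 0.14 (SE 0.123, adjusted p = 0.377). The Fads1 to Fads2 ratio lay between 0.524 and 0.683 in females and between 0.24 and 0.402 in males, a 1.79-fold difference (exact permutation p = 0.00216, adjusted 0.00433). Thrsp, the Spot 14 protein that promotes lipogenesis, ran from 2332 to 3833 CPM across females, and across males from 1743 to 3271, and did not pass the test (log2 0.28, SE 0.145, adjusted p = 0.136). Without male 4, its highest male, Thrsp had a log2 difference of 0.38 and an adjusted p of 0.0326.

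All 3 acyl activation genes among the members were called higher in females, as were 20.5% of all genes tested. Long-chain acyl-CoA synthetases attach coenzyme A to free fatty acids before they enter lipids or oxidation. Acsl3 ran from 35.3 to 43.9 CPM across females, and across males from 11.5 to 15.7, and was 2.81-fold higher (log2 1.49, SE 0.0809, adjusted p = 4.26e-09). Acsl4, which prefers arachidonate, ran from 473 to 608 CPM across females, and across males from 210 to 309 (2.03-fold, adjusted p = 1.25e-06). Acsl5 ran from 780 to 1196 CPM across females, and across males from 351 to 514 (2.45-fold, adjusted p = 4.34e-07). Each separated the sexes without overlap. The Acsl5 to Acsl3 ratio did not pass the test (females 1.15-fold lower, exact permutation p = 0.152, adjusted 0.168). Acsl1, a further long-chain synthetase gene outside the members, had more CPM than each of these. It was not called (2970 CPM in females against 2863 in males, log2 0.05).

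**Figure D2:**
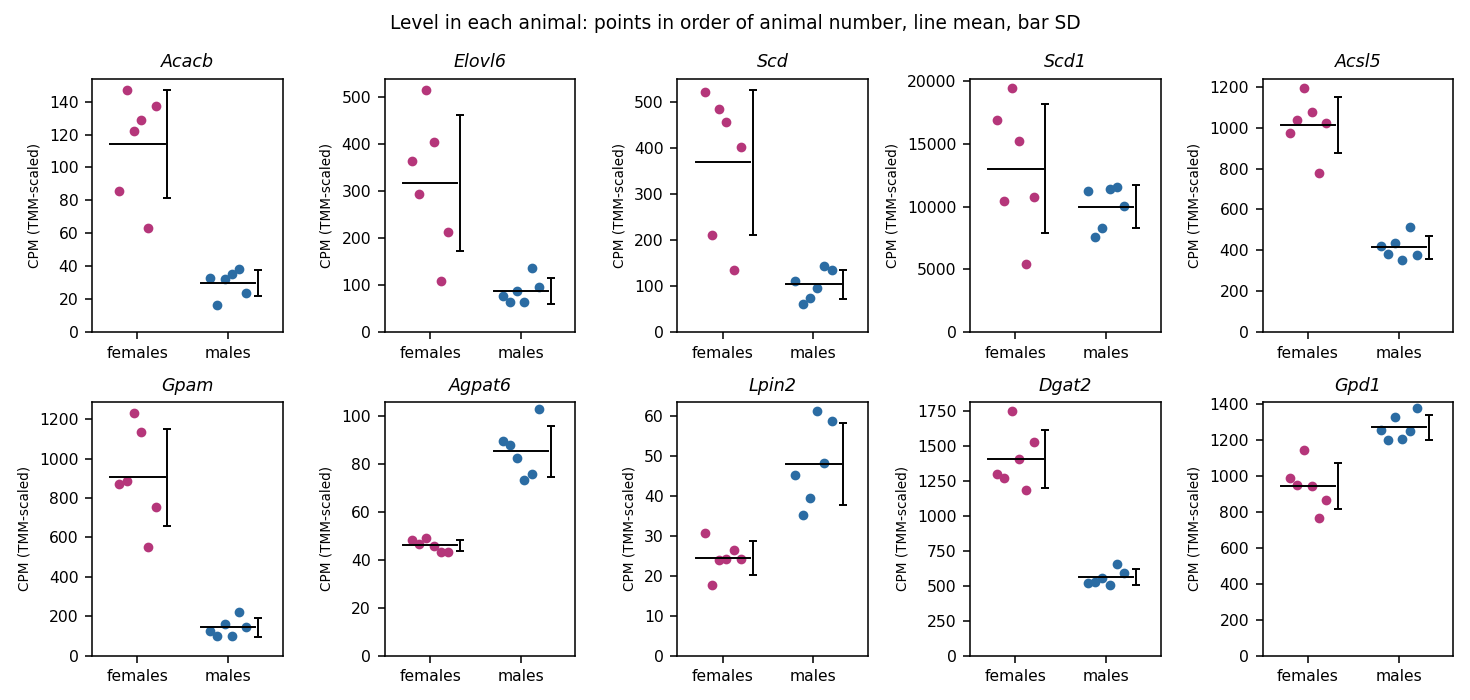
CPM of 10 members in each animal (y axis, from 0), females left and males right, with points in order of animal number, a line at the mean and a bar of 1 SD. Gpam, Dgat2, Acsl5 and Acacb separate upward in females, Agpat6, Lpin2 and Gpd1 upward in males, and Scd1 overlaps.

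Of the glycerol backbone genes tested, 1 of 2 was called, toward males, as were 22.7% of all genes tested. Gpd1, the cytosolic dehydrogenase that makes glycerol 3-phosphate from a glycolytic intermediate, ran from 765 to 1143 CPM in females (median 945) and from 1197 to 1377 in males (median 1252). It was 1.35-fold higher in males without overlap (log2 -0.43, SE 0.0885, adjusted p = 0.0013). Gk, the glycerol kinase gene, ran from 316 to 445 CPM across females, and across males from 311 to 539, and was not called (log2 -0.24, SE 0.136, adjusted p = 0.168). Without male 4, the lowest male, Gk was called higher in males (log2 -0.32, adjusted p = 0.0336).

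The first acylation of glycerol 3-phosphate held the largest difference toward females and the second largest toward males among the members. Gpam, the mitochondrial glycerol-3-phosphate acyltransferase, ran from 551 to 1230 CPM in females (median 879) and from 99 to 223 in males (median 137). The lowest female, number 12, stood above the highest male, number 5, and Gpam was 6.33-fold higher in females (log2 2.66, SE 0.237, adjusted p = 2.37e-06). Agpat6, now named Gpat4, is the acyltransferase of the endoplasmic reticulum for the same step. It ran from 43.2 to 49 CPM across females, and across males from 73.6 to 103, and was 1.86-fold higher in males without overlap (log2 -0.89, SE 0.077, adjusted p = 5.49e-07). Agpat9, now Gpat3, had 34 counts in all females and 28 in all males, too few to test.

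Of 3 lysophosphatidate acyltransferase genes, which add the next acyl chain, 1 was called (33.3%, against 43.2% of all genes tested). This gene, Agpat3, was 1.54-fold higher in females (100 to 161 CPM against 69.7 to 85.8, edgeR adjusted p = 0.000176), with female 12 highest. Agpat2, at 86 ± 8.45 CPM in females and 82.1 ± 4.57 in males (SD, n = 6 each), had a log2 difference of 0.07 (SE 0.0671). Agpat1, with 4.33 ± 0.81 and 3.8 ± 1.25 CPM, also did not pass the test (adjusted p = 0.495). The Gpam to Agpat2 ratio was 6.10-fold higher in females, 7.35 to 13.9 against 1.15 to 2.68 (exact permutation p = 0.00216, adjusted 0.00433).

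Lipins remove the phosphate from phosphatidate to give diacylglycerol. Lpin2 ran from 17.6 to 30.7 CPM across females, and across males from 35.2 to 61.2, and was 1.97-fold higher in males without overlap (log2 -0.97, SE 0.148, adjusted p = 0.000151). Lpin1 ran from 39.8 to 55.8 CPM across females, and across males from 29.5 to 51.3, a log2 difference of 0.30 (SE 0.12) that missed the threshold (adjusted p = 0.057) and passed it with DESeq2 (0.0418). Lpin3, at 24.1 ± 4.57 and 23.9 ± 1.28 CPM, differed by 0.02 on the log2 scale (SE 0.108). Lpin1 per count of Lpin2 was 2.41-fold higher in females, with ratios from 1.64 to 2.55 against 0.482 to 1.46 (exact permutation p = 0.00216, adjusted 0.00433).

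The last acyl chain is added by Dgat1 or Dgat2, unrelated enzymes with the same reaction. Dgat2 ran from 1186 to 1753 CPM in females (median 1355) and from 508 to 659 in males (median 542). It was 2.51-fold higher in females without overlap (log2 1.33, SE 0.101, adjusted p = 1.5e-07). Dgat1 ran from 32.7 to 47.6 CPM across females, and across males from 38.3 to 42.6, overlapping, with a log2 difference of -0.08 (SE 0.0762, adjusted p = 0.441). The ratio of Dgat1 to Dgat2 counts was 2.65-fold higher in males and varied little within a sex, from 0.0257 to 0.03 across females, and across males from 0.0647 to 0.0782 (exact permutation p = 0.00216, adjusted 0.00433). Mogat1, which acylates monoacylglycerol, had 6 counts in each sex and was not tested.

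**Figure D3:**
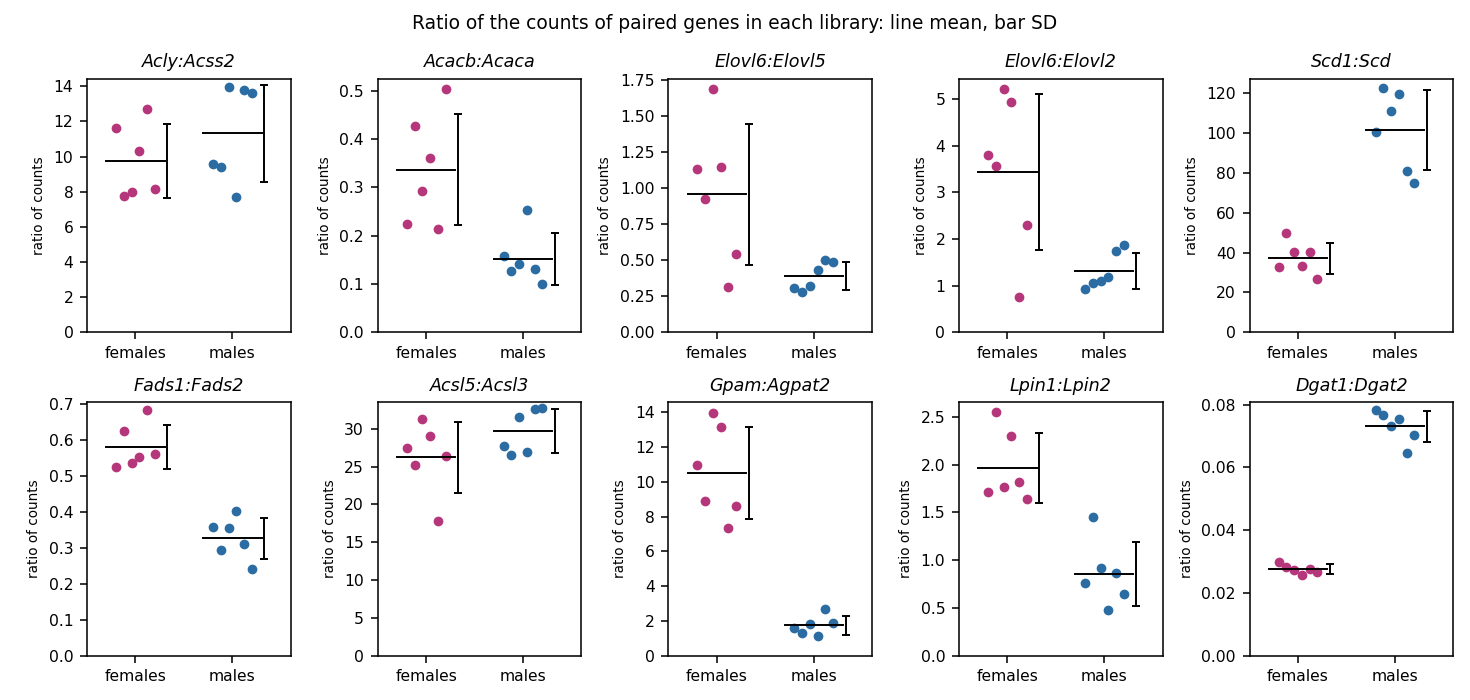
Ratio of the counts of paired genes in each library (y axis, from 0), females left and males right, with a line at the mean and a bar of 1 SD. The ratios Scd1 to Scd, Fads1 to Fads2, Gpam to Agpat2, Lpin1 to Lpin2 and Dgat1 to Dgat2 separate the sexes without overlap. The others overlap: Acly to Acss2, Acsl5 to Acsl3, Acacb to Acaca, Elovl6 to Elovl5 and Elovl6 to Elovl2.

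Of 10 ratios tested, 8 differed between the sexes at an adjusted p under 0.05. The Acly to Acss2 ratio was the other that did not (males 1.15-fold higher, exact permutation p = 0.299). Ratios of other gene pairs were not tested, so no background share stands beside this count. Some ratios largely restate a single called gene, as for Gpam to Agpat2 (6.10-fold, where Gpam alone was 6.33-fold higher in females). Another pair, Srebf1 with Mlxipl, is not analysed here, and Scd1 with Scd took the place of Scd with Scd2 after the symbols in the files had been seen.

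Within a sex, some animals were the highest or lowest for many members, a pattern that was described and not tested. Female 9 was the highest female for 15 of the 29 tested members (51.7%), where it was the highest for 21.2% of all tested genes, and female 12 was the lowest for 15 (51.7%, against 25.1%). Among males, number 5 was highest for 14 members (48.3%, against 13.1%) and number 2 lowest for 13 (44.8%, against 11.8%). The 15 members lowest in female 12 included Acss2, Acacb, Elovl6, Scd, Scd1, Gpam and Dgat2. The mean of the other 5 females was 3.28-fold that of female 12 for Elovl6, 3.07-fold for Scd, 2.69-fold for Scd1, 2.01-fold for Acss2, 1.97-fold for Acacb and 1.77-fold for Gpam. Elovl2, Acsl3, Agpat1 and Agpat3 went against this, since female 12 was the highest female for them. In all, female 12 stood above the mean of the other 5 females for 9 of the 29 members. Female 9, whose library was the smallest at 6763879 counts, stood at 516 CPM of Elovl6 and 1230 CPM of Gpam, both the highest of all animals. Relations of this pattern to depth were not tested.

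**Figure D4:**
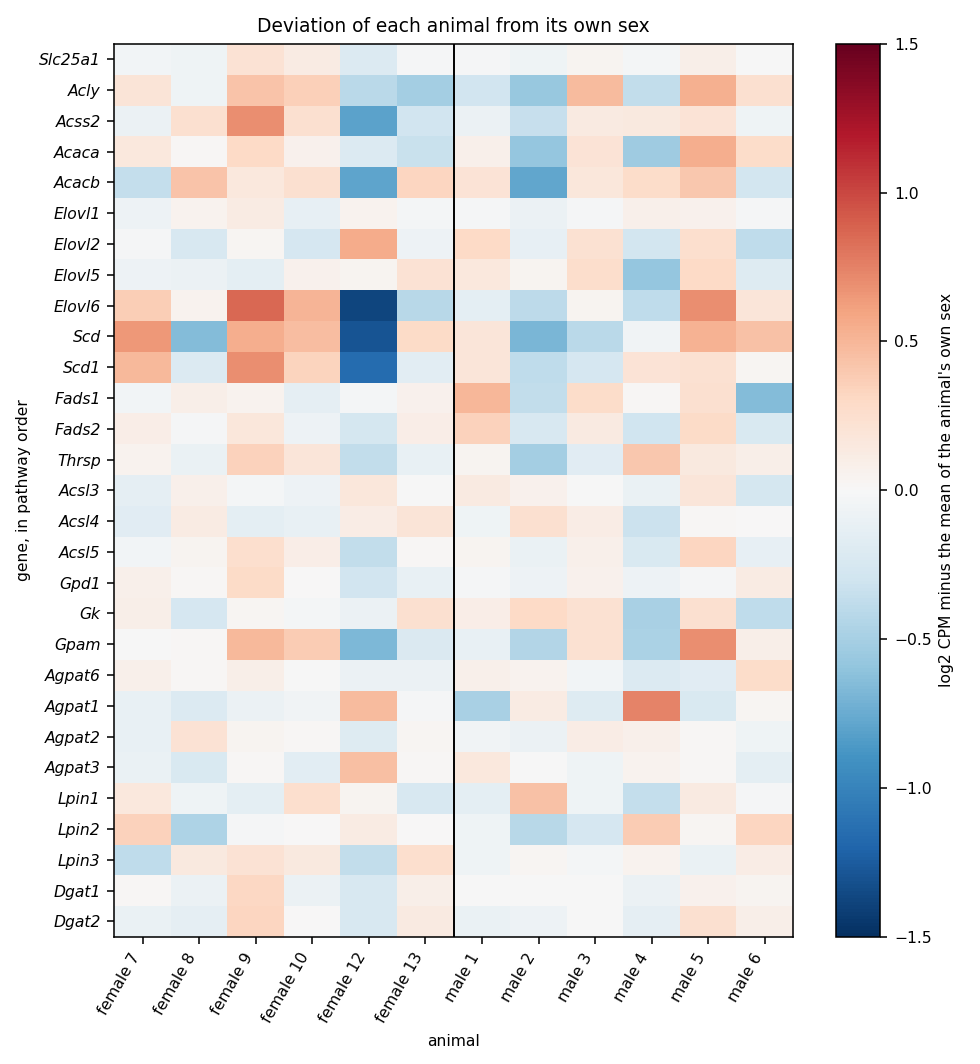
Log2 CPM of each tested member (y axis, pathway order) in each animal (x axis) minus the mean of the animal's own sex, with red above and blue below it. The darkest column is female 12 at Elovl6, Scd and Scd1, while Elovl1 stays pale in all 12 animals.

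The share of gene counts taken by the 31 members together ran from 1.65% to 3.93% across females, and across males from 1.52% to 2.23%, with female 12 the lowest female. Scd1 alone took 0.535% to 2.08% in females and 0.752% to 1.15% in males. The sums over all 31 members overlapped between the sexes. Without Scd1, a sum that was not planned, the members took 1.12% to 1.85% in females and 0.77% to 1.08% in males. These groups did not overlap but nearly touched.

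Genes that feed and steer the pathway were read from 4 further lists. Over all genes tested 43.2% were called, 20.5% toward females and 22.7% toward males. Carbon and NADPH supply had 12 tested genes, with 7 called toward females and 3 toward males (83.3% called; median log2 difference 0.27). The malic enzyme gene Me1, a source of NADPH, averaged 180 ± 70 CPM in females and 99.6 ± 24.9 in males (SD, n = 6 each; log2 0.85, adjusted p = 0.0207). Female 12 was the lowest female for Me1, at 80.7 CPM, where the other 5 averaged 199.6, and it lay within the male range. Idh1, another cytosolic source of NADPH, was higher in females without overlap (log2 0.53, SE 0.0648), and Pklr, the liver pyruvate kinase, was not called (log2 0.10, SE 0.102).

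All 25 lipogenic regulators were tested, and 10 were called toward females and 6 toward males. This was 64% called, against 43.2% of all genes tested, with a median log2 difference of 0.22. Insig1, which holds SREBP precursors in the endoplasmic reticulum, was higher in females (365 ± 88.3 against 236 ± 42.8 CPM, log2 0.63, adjusted p = 0.00815), as was Mbtps2, the site-2 protease that releases SREBP (log2 0.62, adjusted p = 0.00673). Pparg, a lipogenic nuclear receptor, averaged 0.607 ± 0.386 CPM among females and 2.92 ± 0.721 among males, without overlap (log2 -2.17, SE 0.308, edgeR adjusted p = 6.71e-05). Its level in females was close to that of a few counts, and only its reads in males took it past the read filter. Irs2, an insulin receptor substrate, was higher in males (log2 -0.88, adjusted p = 0.0286), which did not hold when female 8, 9 or 10 or male 2, 3 or 4 was left out singly (adjusted p up to 0.0666). Mid1ip1, the partner of Thrsp, was not called (log2 -0.32, SE 0.156).

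Acyl activation and esterification had 15 other tested genes, of which 5 were called toward females and 3 toward males. This was 53.3% called, against 43.2% of all genes tested (20.5% toward females, 22.7% toward males), with a median log2 difference of 0.08. Aqp9, the glycerol channel of hepatocytes, averaged 58.2 ± 11.8 CPM in females and 171.5 ± 26.9 in males, without overlap (log2 -1.56, SE 0.135, adjusted p = 8.98e-07). Mogat2, at low levels, was higher in females (1.73 ± 0.588 against 0.509 ± 0.245 CPM, edgeR adjusted p = 0.00058), and its reads in females took it past the read filter. Gpd2 (log2 0.63) and Lpgat1 (log2 0.59) were also higher in females. Acsl1, with the highest CPM among genes of the list that were not called, averaged 2970.0 ± 124 and 2863 ± 226 CPM (log2 0.05, SE 0.0732). Among 6 tested elongation partners and electron donors, 1 call was toward females and 2 toward males (50% called, median log2 difference -0.14). Hsd17b12, the ketoacyl reductase of the elongation cycle, was higher in males (log2 -0.63, adjusted p = 7.52e-05), as was Cyb5a, the cytochrome b5 that passes electrons to desaturases (log2 -0.39, adjusted p = 0.000104). Its reductase Cyb5r3 was higher in females (log2 0.49, adjusted p = 0.00462), and Tecr, the last reductase of the cycle, was not called (log2 -0.02, SE 0.0795).

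Markers of other cell types were read in the same libraries, where 20.5% of all genes tested were called toward females and 22.7% toward males. Of 4 sinusoidal endothelial markers tested, 3 were called toward females, and Pecam1 was not called (log2 -0.05). The sum of these markers ran from 76 to 94.4 CPM across females (female 12 at 93.3), and across males from 28.1 to 75.9. Of 10 macrophage markers, 2 were higher in females (sum 219 to 323 CPM against 128 to 445, male 4 highest), and 7 stellate cell markers gave 1 call toward females and 2 toward males (sum 161 to 225 against 132 to 243). Adipocyte markers, which could carry lipogenic transcripts, summed to 20.8 to 29.9 CPM in females and 17.9 to 34 in males, with Lep at 0 counts in all libraries and Adipoq at 0.0297 and 0.0146 CPM on average; 1 of 4 tested was higher in each sex. Bile duct markers (0 of 2 tested called, adjusted p at least 0.744) and neutrophil markers (1 of 1 tested higher in males, sum up to 24.6 CPM in male 4) were low. The 8 hepatocyte markers gave 2 calls toward females and 3 toward males. Exocrine pancreas markers gave 1 of 2 tested higher in each sex, with Prss1 at 0 counts. Cpa1 averaged 18.25 CPM in females and 0.0314 in males, and Cela1 2.91 and 11.88. The sum of the pancreas markers ran from 5.92 to 38.7 CPM across females, and across males from 9.43 to 13.6. The part of these cell types in the members' differences was not tested.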

How the data were processed

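An Illumina TruSeq kit turned total liver RNA of 12 rats into libraries, per the labels' protocols. Bowtie2 2.0.2, DESeq and build rn4 are named in the submitters' processing notes. How reads were assigned to genes, and with which annotation, is not given in the sources used here. The names of the deposited files hold the word strand, with no setting given. Related, overlapping and antisense genes may therefore share reads. For each gene symbol the authors deposited a raw read count, with no scaling. Between 27.1% and 31.7% of a library's counts stood in 5 entries that name no gene, which entered neither totals nor tests. Each library was used as 1 animal from its numbered title; where animals were not separate, p-values measure only the spread between these samples. As a check for a library deposited more than once, all 30 within-sex pairs differed by more than sampling noise (lowest chi-square divided by its degrees of freedom 6.34).

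The sexes were compared with edgeR 4.0.16 under R 4.3.3 (filterByExpr with minimum count 10 and minimum total 15, TMM scaling, quasi-likelihood F test with robust dispersion) over 9943 genes, with Benjamini-Hochberg adjustment and a threshold of 0.05. SE was obtained from the F statistic and the log2 difference. CPM are TMM-scaled. Ratios of counts (0.5 added to each) were compared on the log2 scale by 2-sided exact permutation tests. DESeq2 1.42.0, limma-voom (limma 3.58.1), other scalings and filters, and each animal left out were tried. The steps were tested on simulated data. The members and all lists were chosen with earlier results of these data known. Every member is described; of each further list, up to 4 called genes with the largest difference and the most abundant gene not called are named. Some genes that this rule names are not reported here. Other genes, including Adipoq, Lep and Prss1, were named after their values were seen.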

Additional observations from a re-analysis of the deposited data

Results flagged for a closer look

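For the members and the 24 other genes named by rule, 110 groups of 6 animals were examined for an animal whose gap to its nearest neighbour took more of the group's range than Dixon's 95% limit, and this was met in 8 groups, by 4 animals. Chance flags about 1 in 20 groups. Female 12 stood above the other 5 females for Elovl2 (143 CPM against 81.8 to 98.9), Agpat1 (5.94 against 3.7 to 4.23), Agpat3 (161 against 100.2 to 119) and Chpt1, a choline phosphotransferase gene (229 against 158 to 169). Female 9 stood above the others for Pklr (1270.0 CPM against 825 to 972) and for Agpat9 (0.969 against 0.197 to 0.423, a few counts). Female 13 stood highest for Acsl1 (3200.0 CPM against 2850.0 to 2980.0). Male 4 was the high male for Aqp9 (222 CPM against 150.0 to 176).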

How the results depend on the processing

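No paired analysis was possible because females and males share no animal number. Of 29 members, 23 kept direction and side of the threshold under all 20 alternatives tried, 16 to 18 were higher in females and 3 to 4 in males. Lpin1, Gk, Scd1 and Thrsp passed the threshold under some of them. Differences near 0 changed sign: with animals left out in turn Slc25a1 ran from -0.075 to 0.010, Lpin3 from -0.027 to 0.085 and Tecr from -0.078 to 0.025 on the log2 scale. Without male 4 and female 12 together Slc25a1 was 0.017 and Tecr 0.064, and Tecr was 0.00663 with upper quartile factors and 0.00672 with library totals. With library totals 1 carbon and NADPH supply gene was higher in males. Of the other acylation genes, 3 were higher in females with no filter and 3 to 4 with an animal left out. The log2 difference of Elovl6 to Elovl2 ran from 1.04 to 1.59 and that of Elovl6 to Elovl5 from 0.943 to 1.43 with an animal left out. The cause of these changes was not tested. Low counts limit Agpat9 and Mogat1, which were not tested, and the values of Pparg in females (64 counts in all) and Mogat2 in males (49).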

Other observations

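Phosphatidate and diacylglycerol also feed phospholipids. The phospholipid branch had 16 tested genes, with 4 called toward females and 5 toward males (56.2% called; median log2 difference -0.05). Over all genes tested 43.2% were called, 20.5% toward females and 22.7% toward males, and the branch was not tested against these shares. Pcyt1a, the rate-setting enzyme of phosphatidylcholine synthesis, was higher in females (23.2 ± 2.65 against 16.7 ± 2.77 CPM, SD, n = 6 each; log2 0.47, edgeR adjusted p = 0.00309), as was the CDP-diacylglycerol synthase gene Cds2 (log2 0.49, adjusted p = 0.00274). Etnk2, an ethanolamine kinase gene, was higher in males without overlap (68.4 ± 6.37 against 102 ± 7.81 CPM, log2 -0.57, adjusted p = 1.93e-05). Chpt1, which joins phosphocholine to diacylglycerol, was higher in males (log2 -0.33, adjusted p = 0.0242), which did not hold when female 8 or 10 or male 1, 3 or 5 was left out singly (adjusted p up to 0.0572). Pcyt2, which catalyses the step of Pcyt1a in the ethanolamine route, was the gene of the branch with the highest CPM among those not called (353 ± 17.8 against 373 ± 19.9 CPM).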
